A study of Mus musculus with 9 samples.

Results

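The miR-15/miR-16 and miR-103/miR-107 families were measured in cultured mouse hippocampal neurons under 3 conditions. The 8 miRNAs were chosen by name, as the array entries mmu-miR-15a, mmu-miR-15b, mmu-miR-16, mmu-miR-195, mmu-miR-322, mmu-miR-497, mmu-miR-103 and mmu-miR-107 without the star strands. They are 8 of the 650 miRNAs on the array, 6 of them from the miR-15/miR-16 family and 2 from the miR-103/miR-107 family. The cells were primary hippocampal neurons of C57BL/6 mice, prepared at postnatal day 1 and used at day 10 in vitro. Control cultures were left untreated, NMDA cultures received 20 µM NMDA, an agonist of the NMDA type of glutamate receptor, and bicuculline cultures received 50 µM bicuculline, a blocker of GABA-A receptors that makes the neurons fire in bursts. Labels give 4 h for both treatments. Total RNA was labelled with Cy3 and hybridized to 9 one-colour Agilent miRNA arrays, 3 per group, and the methods give independent cell preparations. Control and treated cultures shared strain, age and culture conditions, and no transgene was used.

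MicroRNAs are short RNAs that guide a silencing complex to messenger RNAs, chiefly through the seed, the bases 2 to 8 from the 5′ end. Members of the miR-15/miR-16 family are known as brakes on the cell cycle and on survival proteins of the Bcl2 group. The paralogues miR-103 and miR-107 lie in introns of pantothenate kinase genes and are known for roles in metabolism. miR-16 and miR-103 are often taken as reference miRNAs in quantitative PCR, so the spread of the families between arrays is described beside their response.

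The mature sequences are shown because their seeds define the families and because some members differ at few positions, which matters for what a probe can tell apart. They are taken from RefSeq (GRCm38.p6), written 5′ to 3′ with the seed in capitals, and all 8 array names had an entry.
miR-15a: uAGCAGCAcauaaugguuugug
miR-15b: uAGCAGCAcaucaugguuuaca
miR-16: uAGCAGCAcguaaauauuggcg
miR-195: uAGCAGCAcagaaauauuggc
miR-322: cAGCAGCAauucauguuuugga
miR-497: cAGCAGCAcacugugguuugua
miR-103: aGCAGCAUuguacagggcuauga
miR-107: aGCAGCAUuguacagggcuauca

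The first 6 share the seed AGCAGCA, and miR-103 and miR-107 share the seed GCAGCAU. The seeds of both families hold the string GCAGCA, shifted by a single position, so their target sites overlap in part. Among 1679 mature mouse miRNA names in RefSeq, 10 have the seed AGCAGCA (0.596%) and 2 have GCAGCAU (0.119%). Counted from the 5′ end, miR-103 and miR-107 differ only by G22C, with miR-103 written first. miR-16 and miR-195 differ by G10A and U11G over the 21 positions they share. miR-15a and miR-15b have the same base at 18 of 22 positions. Whether probes of such pairs cross-hybridize was not tested, since probe sequences were not used here.

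In the GRCm38.p6 annotation the mature forms lie at the following places. miR-15a (chr14:61632075-61632096) and 1 copy of miR-16 (Mir16-1, chr14:61631936-61631957) lie on the minus strand within the span of the non-coding gene Dleu2. miR-15b (chr3:69009775-69009796) and the other copy of miR-16 (Mir16-2, chr3:69009918-69009939) lie on the plus strand within the protein-coding gene Smc4, with 66 bases between their hairpins. miR-497 (chr11:70234730-70234751) and miR-195 (Mir195a, chr11:70235062-70235082) are neighbours on the plus strand, with 241 bases between the hairpins. miR-322 (chrX:53054306-53054327) lies on the minus strand within the non-coding gene C430049B03Rik, 200 bases from the hairpin of Mir503. miR-103 has 2 copies on plus strands, Mir103-1 (chr11:35782447-35782469) in Pank3 and Mir103-2 (chr2:131288103-131288125) in Pank2. miR-107 (chr19:34820700-34820722) lies on the minus strand in Pank1. An array signal for miR-16 or miR-103 sums both of its gene copies.

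Each member had 2 probes of 10 spots each. Signals were divided by the array scale, which is the 75th percentile of the 265 probes detected on every array, and are given as percent of it. A probe counts as detected, or well above background, where the scanner software marks it so on most of its spots. A miRNA was read from its brighter probe. On this basis 7 of the 8 members were well above background on every array, and miR-322 was so on 1 array. The arrays lay on 2 slides. Controls 1 and 2, NMDA 1 and 2 and bicuculline 1 were on slide 1, and the other 4 arrays were on slide 2. Per array, 162 to 221 miRNAs were well above background. The 4 neuronal marker miRNAs were detected on all 9 arrays, with summed levels of 2838% to 3165%. None of the 3 erythrocyte markers, among them miR-451, which blood carries with miR-16, was detected on any array. The astrocyte marker miR-21 (185% to 232%) and 1 of 2 oligodendrocyte markers, miR-338-3p, were also detected on every array. The immune marker miR-146a was detected on some arrays and the other 4 of the list on none, with summed levels of 11.6% to 16.2% in controls, 12.0% to 17.1% after NMDA and 9.88% to 16.5% after bicuculline. Of 7 vascular and mesenchymal markers, 2 were detected on some arrays. In bulk RNA fewer cells of a type and less RNA per cell cannot be told apart.

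Neither NMDA nor bicuculline changed the 7 measurable members by an amount that passed the test. All of them stayed near their control level, as most miRNAs tested did, while some others on the same arrays moved. After NMDA, miR-689 was higher by 3.25 on the log2 scale (limma adjusted p = 0.000310). The authors state that its standing as a true miRNA is debated. After bicuculline, the activity-regulated miR-212 was higher by 1.98 (limma adjusted p = 0.0228). It was the 1 miRNA called of 161 tested there, and under several alternatives none was called. The other activity-regulated miRNA checked, miR-132, was higher by 0.641 after bicuculline and did not pass (limma adjusted p = 0.386).

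miR-15a is made from the Dleu2 locus. Its level was 49.1%, 50.5% and 54.0% of the array scale on the control arrays, 51.7%, 49.8% and 51.4% after NMDA, and 50.7%, 55.2% and 48.2% after bicuculline. The group means were 51.2% ± 2.53, 51.0% ± 1.06 and 51.4% ± 3.53 (SD, n = 3). The 3 groups overlapped, and the highest and the lowest array were both bicuculline arrays.

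miR-15b, from the Smc4 intron, stood at 48.5%, 48.9% and 51.4% in controls, 47.9%, 50.0% and 52.5% after NMDA, and 46.0%, 53.3% and 52.1% after bicuculline. Means were 49.6% ± 1.54, 50.2% ± 2.29 and 50.5% ± 3.92 (SD, n = 3), again with overlap of all groups. In this miRNA the slides separated: the 4 arrays of slide 2 read 51.4% to 53.3% and the 5 arrays of slide 1 read 46.0% to 50.0%.

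miR-16, the member shared by both miR-15 loci, read 107.2%, 115% and 97.5% in controls, 102%, 111% and 99.2% after NMDA, and 109%, 99.98% and exactly the array scale after bicuculline. Means were 106% ± 8.58, 104% ± 6.23 and 103% ± 5.48 (SD, n = 3). Here slide 2 was the lower, with all 4 arrays at or under the array scale and all 5 of slide 1 between 102% and 115%. The scale itself enters this value, since the 75th percentile fell exactly on a member's probe on 2 arrays, miR-16 on bicuculline 3 and miR-103 on NMDA 3. With the scale taken from the 251 reference probes of other miRNAs, chosen after seeing the data, the 7 members differed from control by -0.04 to 0.01 after NMDA and by -0.03 to 0.03 after bicuculline on the log2 scale.

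miR-195 and miR-497 come from neighbouring hairpins. miR-195 read 36.6%, 37.4% and 37.8% in controls, 36.5%, 37.8% and 38.7% after NMDA, and 37.8%, 35.7% and 38.3% after bicuculline, with means of 37.3% ± 0.613, 37.7% ± 1.11 and 37.2% ± 1.38 (SD, n = 3). miR-497 read 34.5%, 37.2% and 36.2% in controls, 38.5%, 36.6% and 34.0% after NMDA, and 36.6%, 37.4% and 33.1% after bicuculline, with means of 35.9% ± 1.33, 36.4% ± 2.29 and 35.7% ± 2.28 (SD, n = 3). No group of either miRNA lay apart from another. Both had their highest mean after NMDA and their lowest after bicuculline, by less than the spread between arrays.

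miR-103, from the Pank3 and Pank2 introns, read 335%, 351.2% and 348% in controls, 327%, 324% and 356% after NMDA, and 333%, 339% and 368% after bicuculline. Its means were 345% ± 8.84, 336% ± 17.9 and 346% ± 18.8 (SD, n = 3). miR-107, from the Pank1 intron, stood at 367%, 396% and 396% in controls, 378%, 381% and 414% after NMDA, and 368%, 401% and 384% after bicuculline. Its means were 387% ± 16.6, 391% ± 20.2 and 384% ± 16.4 (SD, n = 3). Groups overlapped for both, although the mean of miR-103 was lowest after NMDA and that of miR-107 was highest there.

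**Figure D1:**
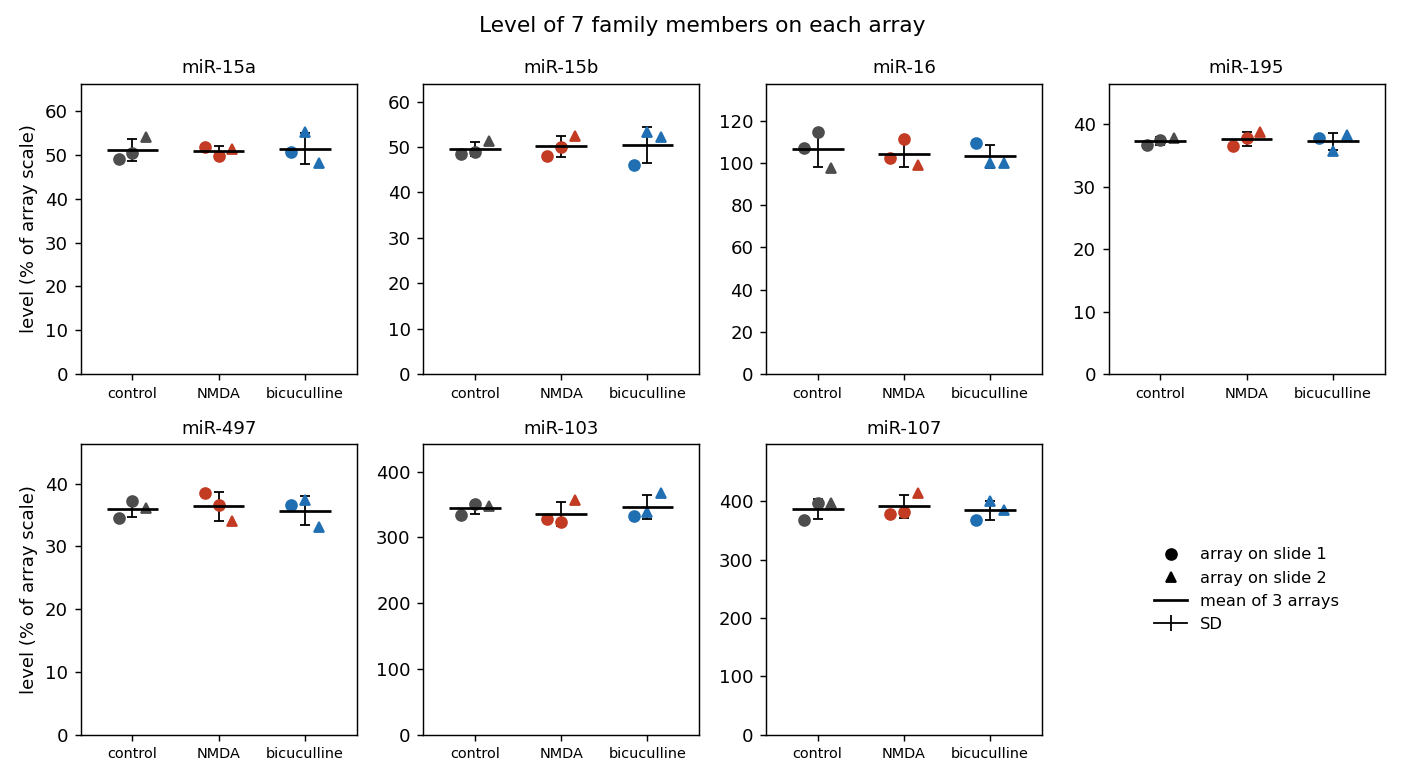
Level of 7 family members on each array, in percent of the array scale with each axis starting at 0, for control, NMDA and bicuculline (points, 3 arrays per group; circles for slide 1, triangles for slide 2; bars, mean and SD). The 3 groups overlap in every panel, and slide 2 lies above slide 1 for miR-15b and below it for miR-16.

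The question of the design was how miRNA levels differ between untreated neurons, neurons with NMDA in the bath and neurons with raised synaptic activity. For NMDA versus control, 0 of 7 members passed limma at an adjusted p of 0.05, where 15 of 181 tested miRNAs did (8.29%). At an unadjusted p of 0.05 the members gave 0 as well, against 11.0% of all tested miRNAs, and the methods' t-test also called 0. No member had non-overlapping groups, against 14.9% of those tested, and none moved by more than 1.2-fold, against 11.0%. At these shares, a count of 0 among 7 miRNAs is near the background. Changes ran from -0.04 for miR-103 to 0.02 for miR-497 on the log2 scale, 4 of them above and 3 below 0. The median change was 0.01, beside -0.01 over all tested miRNAs. The standard errors were 0.073 to 0.093, larger than each of the changes, and the lowest limma adjusted p was 0.991. With the percentile of all probes as the scale, the members lay at -0.46 to -0.41 (limma adjusted p = 0.0894 to 0.105), where the median of all tested miRNAs was -0.43.

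For bicuculline versus control, 0 of 7 members passed limma after adjustment, where 1 of 161 miRNAs did (0.621%), and none had an unadjusted p under 0.05 (1.24% of all). The methods' t-test called 0 members here too. Changes ran from -0.04 for miR-16 to 0.02 for miR-15b, with a median of -0.0025 beside -0.02 over all tested miRNAs. The lowest limma adjusted p was 0.999. None had groups apart or moved by more than 1.2-fold (3.11% of all for either measure). With so few calls over the whole array, a count of 0 among 7 miRNAs is near the background.

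The treatments were also set directly against each other, since both comparisons above share the control arrays. For NMDA versus bicuculline, 0 of 7 members passed limma, against 16 of 181 miRNAs (8.84%), and 0 had an unadjusted p under 0.05, against 13.3%. Here too 0 of 7 is near the background. The methods' t-test called 0 members. Changes ran from -0.04 for miR-103 to 0.03 for miR-497, and the lowest limma adjusted p was 0.990. The median over the members was 0.02 and that over all tested miRNAs was 0.0018. This count rested on the scale: with each array divided by the percentile of all its probes, 7 of 7 members were called lower, by -0.52 to -0.45 (limma adjusted p = 0.00908 to 0.0158), along with 143 of the 181 miRNAs, whose median was -0.47. Relative to that median the members lay at -0.05 to 0.02.

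A p that misses the threshold does not show that levels were equal, so the 95% intervals bear on how large a change these arrays leave room for. Over the 7 members and 3 comparisons the 21 intervals reached from -16.8% to 18.1%. For miR-103 the interval after NMDA was -0.22 to 0.15 on the log2 scale, for miR-107 -0.17 to 0.21 and for miR-195 -0.16 to 0.19. The widest interval in the downward direction was that of miR-16 after bicuculline, -0.27 to 0.18. Of the 21 intervals, 20 lay within 1.2-fold in both directions. These intervals hold for the scale used and for fits without pairing of arrays, and the number of arrays limits their width.

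**Figure D2:**
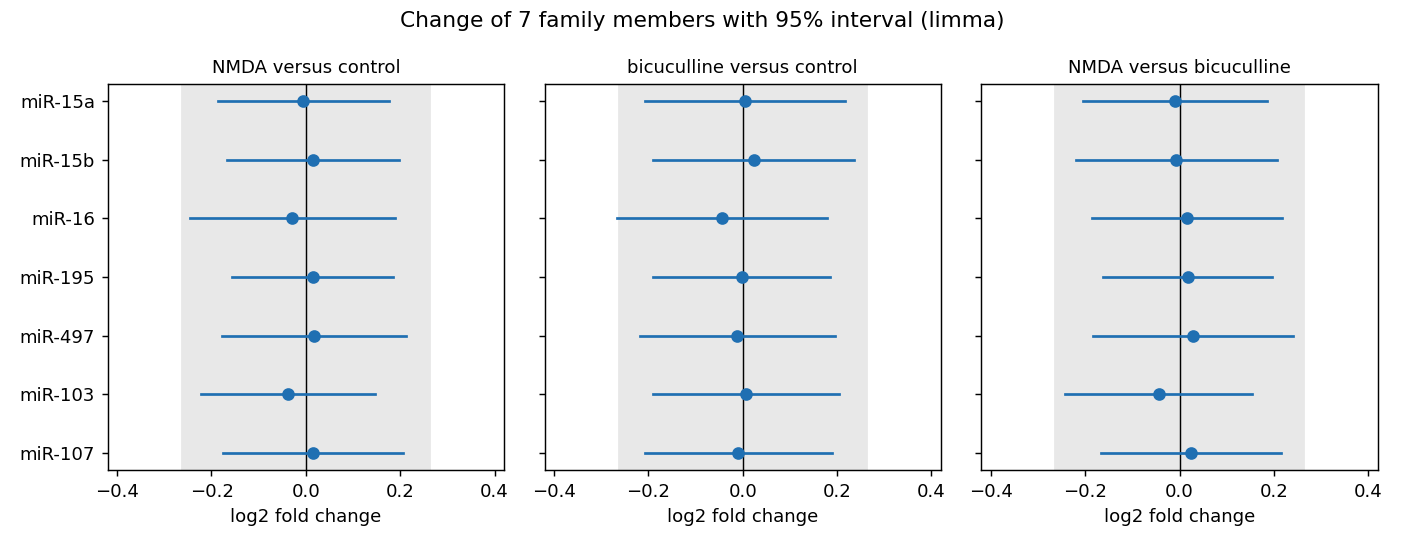
Log2 fold change (points) with 95% interval (lines) of 7 family members from limma, for the 3 comparisons of 3 arrays against 3, with the grey band marking 1.2-fold in both directions. Every interval crosses 0, and 20 of 21 lie inside the band.

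The slides held more than 1 group each, so the comparisons were repeated with the slide as a block and within each slide. With the block, members changed by -0.04 to 0.02 after NMDA and by -0.03 to 0.01 after bicuculline, and none passed limma. Within slide 1 the changes were -0.07 to 0.07 after NMDA and -0.08 to 0.03 after bicuculline. Within slide 2 they were -0.09 to 0.06 and -0.07 to 0.04. The largest of these, from 1 to 2 arrays per group, stayed under 0.1 on the log2 scale. The within-slide values were not tested.

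Ratios within an array do not depend on the array scale, and 4 pairs of neighbouring or near-identical miRNAs were compared this way in 3 comparisons, 12 tests in all. An exact two-sided permutation test of 3 arrays against 3 cannot give a p under 0.1. The log2 ratio of miR-103 to miR-107 was centred on its mean over the control arrays. It was 0.03, -0.01 and -0.02 in controls and -0.04, -0.07 and -0.05 after NMDA, so that the groups did not overlap. After bicuculline it was 0.02, -0.08 and 0.10 and spanned both other groups. The change from control after NMDA was -0.05 (exact p = 0.1, the smallest possible, and 1 after adjustment over 12 tests) on the brighter probes. With the other probe of each miRNA the change was -0.14 after NMDA and -0.15 after bicuculline, so that NMDA and bicuculline differed there by 0.0044. The ratios of miR-15a to miR-16, miR-15b to miR-16 and miR-195 to miR-497 overlapped between groups in all comparisons, with changes between -0.03 and 0.07 and exact p-values of 0.6 to 1.

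Over the 9 arrays the families lay among the least variable miRNAs. The SD of the log2 level was 0.037 for miR-195, the smallest of the 156 miRNAs detected on every array. It was 0.058 for miR-107 (rank 8), 0.061 for miR-103 (rank 9), 0.063 for miR-15a (rank 11), 0.070 for miR-15b (rank 21), 0.072 for miR-497 (rank 24) and 0.084 for miR-16 (rank 37). All 7 lay under the lower quartile of the 156, which was 0.087, and the median was 0.126. Between its lowest and highest array miR-195 differed by 8.60% and miR-16 by 17.5%. Within groups, the SD of miR-195 ranked 2 at 0.042 and that of miR-16 ranked 48 at 0.094, and 6 of the 7 lay under the lower quartile.

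This order depended on scale and probe. On the scale without member probes miR-195 still ranked 1 of 156, but it ranked 7 with the array median as scale, 25 after quantile normalization, 23 in the deposited processed table, 45 with no scaling and 59 with the scanner software's total gene signal. miR-16 ranked 118 and miR-103 ranked 104 in the processed table. Read from their other probes, miR-16 had an SD above that of 78.2% of the 156 and miR-103 above that of 62.8%, and miR-497 ranked 118, while miR-195 ranked 27. The ranking is a description of these arrays, for which brighter and dimmer miRNAs were not separated.

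**Figure D3:**
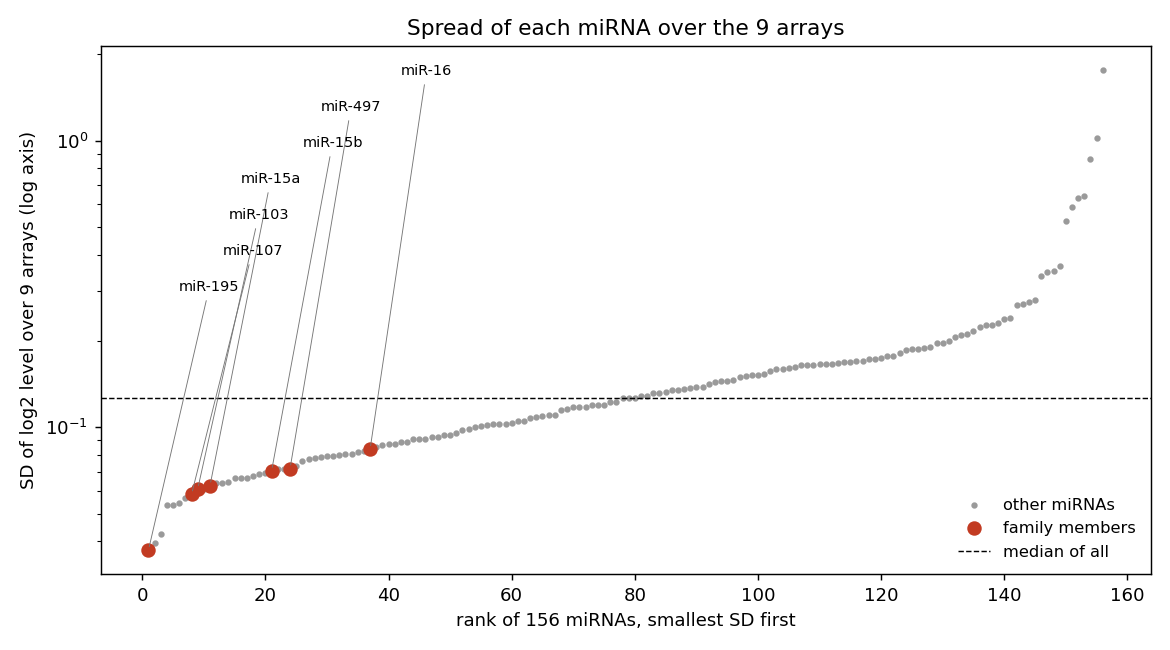
SD of the log2 level over the 9 arrays (log axis) of 156 miRNAs, ranked from the smallest, with the 7 family members in red and the median of all as a dashed line. The members lie from rank 1 (miR-195, 0.037) to rank 37 (miR-16, 0.084), below the median of 0.126.

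The probes of a member did not always behave alike. Spots of a probe differed on an array by a coefficient of variation of 1.13% to 24.7%, with a median of 6.26%. The other probe of miR-16 read 27.3% to 31.1% on slide 2 and 35.3% to 39.4% on slide 1, a difference of -0.37 on the log2 scale, compared with -0.13 for the brighter probe. The other probe of miR-103 was likewise lower on slide 2 by -0.25, at 97.9% to 112% against 116% to 134%, while its brighter probe overlapped between slides. In all, 4 of the 14 probes of the 7 members had no overlap between slides, and 2 of the 7 brighter probes did not, beside 18.6% of the 156 miRNAs read in the same way. The groups were spread over both slides, so slide and treatment were not the same split. The spread was uneven, since bicuculline had more of its arrays on slide 2 than control and NMDA had. Read from the other probes, the largest change was 0.13 after NMDA, for miR-497, and -0.18 after bicuculline, for miR-103. These changes do not take the slide into account, and the other probe of miR-103 read lower on slide 2.

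**Figure D4:**
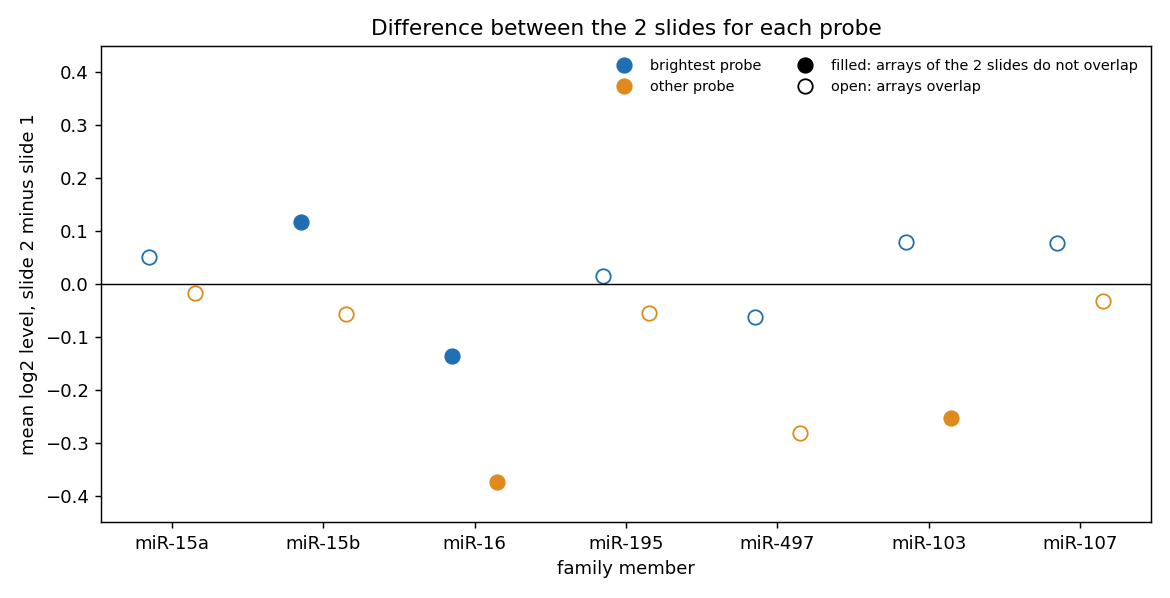
Mean log2 level on slide 2 (4 arrays) minus slide 1 (5 arrays) for the brighter (blue) and the other (orange) probe of 7 family members, with filled points where the arrays of the slides do not overlap. The brighter probes of miR-15b and miR-16 and the other probes of miR-16 and miR-103 are separated, the last pair by -0.37 and -0.25.

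Levels of the members did not rise and fall together over the arrays. Among the 21 pairs of members, Pearson's r of the log2 levels over 9 arrays ran from -0.68 to 0.77 with a median of -0.04, beside a median of 0.01 over all 12090 pairs of the 156 miRNAs. These arrays share slides and a scale, and r is given as a description. The highest r was that of miR-15b with miR-107, of different families. The neighbours miR-15b and miR-16 had r = -0.65, miR-15a and miR-16 had r = -0.47, and miR-195 and miR-497 had r = -0.59. By contrast, miR-103 and miR-107 had r = 0.55. The brighter probes of miR-15b and miR-16 differed between the slides in opposite directions, by 0.12 and -0.13 on the log2 scale. Whether the slides give these values of r was not tested.

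The miRNAs outside the families whose levels followed a member most closely over the 9 arrays also differed by member. For miR-15a they were miR-341 (r = 0.85), the neuronal miR-124 (0.77) and miR-551b (0.67). For miR-15b they were miR-652 (0.92), miR-23b (0.90) and miR-350 (0.90). For miR-16 they were miR-138 (0.91), miR-127 (0.91) and miR-99b (0.88). For miR-195 they were let-7b (0.76), miR-382* (0.74) and miR-128 (0.69). For miR-497 they were miR-30e, miR-345-5p and miR-34a (0.86 each). For miR-103 they were miR-329 (0.90), miR-382 (0.88) and miR-342-3p (0.87), and for miR-107 they were miR-350 (0.90), miR-140* (0.90) and miR-125b-5p (0.82). Only miR-350 was listed for 2 members, the same 2 that had the highest r with each other.

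miR-322, the X-linked member, known for its part in muscle differentiation, was close to background. Its brighter probe read 2.37%, 1.62% and 0.998% of the array scale in controls, 4.71%, 5.03% and 5.83% after NMDA, and 2.12%, 1.13% and 1.17% after bicuculline. It was well above background on NMDA 3 and on no other array. The NMDA arrays were the 3 highest, and control and bicuculline overlapped.

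The mean of miR-322 was 5.19% ± 0.575 after NMDA, 1.66% ± 0.685 in controls and 1.47% ± 0.562 after bicuculline (SD, n = 3). NMDA exceeded control by 3.53 percentage points of the scale, by 2.88 within slide 1 and by 4.83 within slide 2 (exact permutation p = 0.1, the smallest possible, adjusted p = 0.3 over 6 tests of both probes). Its other probe was well above background on 0 of 9 arrays and overlapped between groups, with a difference of 0.489 (exact p = 0.4). No fold is given, because the bound against the lowest signals marked as detected on the control arrays (8.37%, 8.06% and 4.80%) came out under 1, at 0.753. Of the 469 miRNAs too dim for the test, 10.9% had all 3 NMDA arrays above all controls, so the pattern is not particular to miR-322. For bicuculline versus control this share was 1.43% of 489.

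In the deposited processed log2 table miR-322 read 7.14, 7.10 and 7.12 in controls, 7.25 on each NMDA array, and 7.19, 7.14 and 7.16 after bicuculline. The medians of whole columns there were 7.06 to 7.08. The spread in that table is smaller than on the scanner scale, with a median SD over the arrays of 0.071 against 0.126 for the 156 miRNAs detected throughout. With every miRNA of that table tested, a choice made after seeing the data, miR-322 was higher after NMDA than in control by 0.13 (SE 0.028, limma adjusted p = 0.0491), among 26 of 645 called (4.03%). With normexp background correction and every miRNA tested, also chosen after seeing the data, the difference was 0.28 (SE 0.084, limma adjusted p = 0.0984), and 4.46% of 650 were called. In the planned fit with no filter, all levels of miR-322 were at the floor, so that fit could show no change. NMDA and bicuculline differed by 0.09 in the processed table (limma adjusted p = 0.182), where 3.88% were called.

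**Figure D5:**
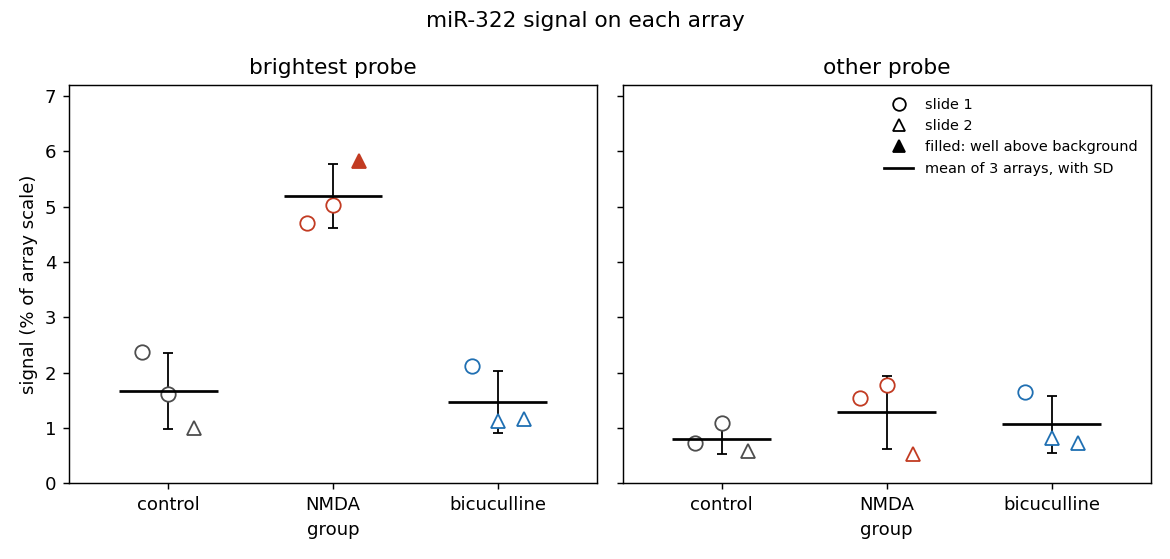
Signal of miR-322 in percent of the array scale on each array, for its brighter and its other probe (circles, slide 1; triangles, slide 2; filled, well above background; bars, mean and SD of 3 arrays). The brighter probe reads 4.71% to 5.83% after NMDA and at most 2.37% elsewhere, and the other probe overlaps between groups.

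The other miRNAs of the miR-322 locus and the opposite strands of the families were below this. All 9 neighbours of miR-322 on the X chromosome, among them miR-503, miR-351 and miR-542-3p, were well above background on 0 of 9 arrays, with signals of -2.19% to 1.67%. Of these, miR-450a-3p read 1.09% to 1.67% after NMDA, at most 0.0605% in controls and at most 0.625% after bicuculline. The other way, miR-351 read -1.11% to -0.939% after NMDA and at least -0.777% in controls. The star strands of miR-15a, miR-15b, miR-16 and miR-322 were so on no array either, with signals of -2.23% to 2.72%. For these 4 pairs the array therefore gave no ratio of the strands.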

How the data were processed

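The authors deposited the scanner output of 9 one-colour arrays, with spot intensity values background-subtracted by Agilent Feature Extraction (10.7.1.1 on slide 1, 10.7.3.1 on slide 2, per the file headers) and not normalized between arrays. They also deposited a processed log2 table whose normalization is not given in the sources used here. It correlated with the scanner log2 values at r = 0.966 to 0.969 over 156 miRNAs, which fixes its direction. Its centring, and the size of its differences relative to the scanner values, are not known.

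Of 13715 spots per array, 13000 were not controls. Over all arrays 3278 outlier-flagged spots were left out, 61 of them among the 1440 member spots, and 0 spots were saturated. Spots were averaged per probe. Detection required the scanner's well-above-background mark on 50% or more of a probe's spots. The array scale was the 75th percentile over 265 probes, and log2 was taken after scaling and a floor of 7.94% of that scale. Each comparison used limma 3.58.1 (R 4.3.3) on the arrays of its groups, two-sided, over the miRNAs detected on all 3 arrays of either group, with Benjamini-Hochberg adjustment. miR-322 was outside this test.

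The members, marker lists and named miRNAs were chosen with earlier results of these data known. Named miRNAs are the 8 members and, for each of the 7 detected throughout, the 3 with the highest correlation over the arrays. The rest served as checks. The labels give 20 µM NMDA for 4 h, and the methods describe a short exposure followed by washing at 20 to 30 µM, so that 4 h may be the time of harvest. Simulated data with known changes served as a test of the limma step. The p-values of the main comparisons come from fits without pairing. They measure the spread between arrays within groups, which the methods give as independent cell preparations.

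As a check of pairing by replicate number, deviations of 156 miRNAs from group means were correlated between same-numbered arrays. For NMDA with control r was 0.36, 0.76 and 0.63 for numbers 1 to 3, for bicuculline with control 0.59, 0.085 and 0.72, and for NMDA with bicuculline 0.62, -0.026 and 0.72. All of the first set exceeded 0.1, but each of its pairs also shared a slide. The check therefore cannot tell pairing by number from a shared slide. The labels do not say whether a number marks a shared preparation, and the replicate block was kept as an alternative only. The lowest values of the last 2 comparisons belong to arrays on different slides, and number and slide were not separated.

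Alternatives were other array scales, quantile normalization, no scaling, total gene signal, other probes or their mean, the processed table, normexp (offset 50) on the median spot signal, stricter and looser filters, the methods' t-test, a smaller floor, all 9 arrays in a joint fit, blocks for replicate and slide, and each array left out.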

Additional observations from a re-analysis of the deposited data

Results flagged for a closer look

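For miR-322, a signal stood out in data that entered no test of the main comparisons, because the miRNA was too dim. Its brighter probe averaged 5.19% of the array scale on the NMDA arrays, above each control array. By the rule used here, its brighter probe was well above background on 1 NMDA array and on no control array. The lowest signal so marked was 8.40% on NMDA 1, 6.68% on NMDA 2 and 5.14% on NMDA 3, so less signal earned the mark on NMDA 3. The scanner software's own detection mark for the whole miRNA was present on 2 arrays.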

How the results depend on the processing

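Each member was recomputed under 23 alternatives per comparison. Without the all-probes scaling, members ranged from -0.15 to 0.13 for NMDA versus control, -0.19 to 0.19 for bicuculline versus control and -0.19 to 0.24 for NMDA versus bicuculline, with lowest limma adjusted p-values of 0.256, 0.728 and 0.156. The sign turned in 33, 51 and 46 of 161 values, the all-probes scaling included. With scaling to all probes the median change of all miRNAs was -0.43 for NMDA versus control, where it had been -0.01, and -0.47 for NMDA versus bicuculline, where it had been 0.0018. In the latter 7 members were then called lower, by -0.52 to -0.45 (limma adjusted p = 0.00908 to 0.0158), or by -0.05 to 0.02 relative to that median. The cause was not tested.

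Counts over all miRNAs by limma moved as follows. For NMDA versus control, 15, all higher, became 26 after quantile normalization (13 higher and 13 lower), 5 with total gene signal, 3 where every array had to be well above background and 5 with no filter. For NMDA versus bicuculline, 16 (15 higher, 1 lower) became 143 on all probes (16 higher, 127 lower), 27 after quantile normalization (14 higher, 13 lower), 7 with total gene signal, 9 with the next probe, 3 with every array, 8 with no filter and 10 by the methods' t-test.
For bicuculline versus control, the count of 1 fell to 0 after quantile normalization and with total gene signal (2 unadjusted p-values under 0.05 each), the mean of all probes (8), every array well above background (1), no filter (4) and the methods' t-test (4), and was 2 with the next probe. Leaving out 1 array at a time gave counts of 0 to 1 there, with 0 without bicuculline replicate 1 or without bicuculline replicate 2, and 15 to 17 in both other comparisons.

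With the replicate number as a block, 17, 2 and 17 miRNAs were called for NMDA versus control, bicuculline versus control and NMDA versus bicuculline, and 0 members in each, so that this block changed no call of a member. For NMDA versus control the standard errors of the members were then 0.038 (miR-195) to 0.065 (miR-497), against 0.073 to 0.093 without the block. For bicuculline versus control they were 0.081 (miR-107) to 0.089 (miR-15a), against 0.081 to 0.096.

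The ratio of miR-103 to miR-107 for NMDA versus control was -0.032 after quantile normalization, -0.076 with total gene signal and with the mean of all probes, -0.14 with the next probe and -0.030 within slide 2. With the next probe it was -0.15 for bicuculline versus control and 0.0044 for NMDA versus bicuculline, and in the processed table it was -0.057 for bicuculline versus control. The ratio of miR-195 to miR-497 with the next probe was -0.14 for NMDA versus control and -0.10 for bicuculline versus control, and within slide 2 it was 0.12 for NMDA versus control. The causes were not tested. Signals near background limit what can be said of miR-322, the star strands and the miR-322 neighbours.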
